A study of Mus musculus with 8 samples.

Results

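The genes described here are 12 genes that were lower on all 4 Aire-knockout arrays than on all 4 wild-type arrays of mouse spleen and lymph node. They were chosen on the measured signals themselves. A probe set, the group of short probes that reads a transcript on these Affymetrix arrays, was taken when its highest knockout signal was under 0.67 times its lowest wild-type signal, with both tissues together, and its lowest wild-type signal was above 60. Of 34945 probe sets that carried exactly 1 gene symbol, 12 met this rule, each for a different gene: Palm, Ccdc158, Pkp2, Ptgds, Flrt1, Cd247, Cavin1, Cerox1, Arhgef12, Zfp653, Nupr1l and Fmo5. They are 0.0343% of the probe sets, and nothing is read from that share because the rule used the same contrast. For the same reason no test of knockout against wild-type was made on these genes, and all their differences between genotypes are a description.

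RNA was measured on 8 arrays, 2 each of spleen wild-type, lymph node wild-type, spleen Aire-knockout and lymph node Aire-knockout mice, marked A and B. The labels name the Aire genotype and the tissue only. They give no strain, age, sex, knockout allele or cell isolation step, and do not say how many animals an array holds. Sex-linked signals, given below, differed between A and B within every group, so the arrays of a group did not carry the same RNA. The p-values below measure only the spread between these arrays, part of which may be technical. The series title places the work in the study of peripheral Aire-expressing cells that delete self-reactive T cells.

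Aire is a nuclear protein best known from medullary epithelial cells of the thymus, where it releases transcription of many genes otherwise restricted to single organs. The peptides made from them are shown to developing T cells, and T cells that bind them strongly are deleted or diverted. Cells that express Aire also exist in spleen and lymph node, and a gene that needs Aire there would be expected to have less RNA in a knockout. Lower RNA in a knockout sample is therefore what makes a gene a candidate for such dependence, and does not by itself show it.

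Aire itself was read by 1 probe set. Its signal was 4782 and 4750 on the spleen wild-type arrays A and B, 3380 and 3322 in wild-type lymph node, 957 and 2527 in knockout spleen and 864 and 1144 in knockout lymph node. All knockout arrays lay below all wild-type arrays, but spleen knockout B reached 0.761 times the lowest wild-type signal, so Aire did not meet the rule. By limma, knockout minus wild-type averaged over tissues was -1.76 on the log2 scale (SE 0.33, adjusted p = 0.319). Whether its probes lie inside the deleted sequence was not known here, so this signal is an incomplete check of the labels.

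The arrays had been scaled before deposition, which brings them to a similar brightness, and their median signals were 53.8 to 65.3. Cell marker signals were uneven. Summed signals of 11 dendritic cell markers were 48703 to 53050 in wild-type and 43014 to 50851 in knockout samples, and those of 9 B cell markers 516 to 951 and 594 to 2162. Most of the dendritic cell sum came from Ccr7, Fscn1, H2-Aa and H2-Ab1. Sums over different probe sets give no order between cell types. The labels name no cell isolation step, so whether the arrays hold whole tissue or isolated cells is not known here. The 14 macrophage markers summed to 2685 to 18806 in wild-type and 6439 to 34297 in knockout samples, and 13 of 14 had a higher mean in knockout, none called by limma; 5 of them passed the signal filter through knockout arrays only. All 11 measured proliferation genes (5 through knockout arrays only) and all 6 plasma cell genes past the filter also had a higher mean in knockout, with median log2 differences of 1.39 and 1.09 and none called. Some of these markers also differed between A and B. Lyz2 of the macrophage list read 2067 and 8600 on the wild-type A arrays and 186 and 727 on wild-type B. On knockout A it read 10054 and 11719, and on knockout B 2371 and 2738. Not all did so: Adgre1 read 82.7 and 83.4 in knockout spleen. Spleen knockout A stood apart in neutrophil genes, with S100a8 at 2803 against 3.33 to 89.8 on the other 7 arrays. Lymph node wild-type A and lymph node knockout B stood apart in salivary gland genes: Bpifa2 read 4043 and 4522 there and 9.39 to 53.5 elsewhere, and Amy1 1729 and 2682 there and 0.445 to 15.5 elsewhere. Without those 2 arrays 101 probe sets met the rule, the 12 among them; fewer arrays make it easier to meet. Xist, transcribed from the inactive X of females, read 7238 and 7851 on the wild-type A arrays, 4185 and 3350 on wild-type B, 5245 and 6943 on knockout A, and 15.5 and 23.3 on knockout B. Eif2s3y, on the Y chromosome, was at 20.1 and 4.21 on the wild-type A arrays and at 569 to 2094 on the other 6. X-linked and Y-linked signals thus differed between the genotypes and between A and B, and the part of these differences in the values below was not tested. In samples like these, fewer cells of a type and less RNA per cell cannot be told apart.

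Most of the 12 probe sets gave low signals, which depend on each probe set's own probes and give no order of RNA levels between genes. For each gene the percentile of the signal was taken on each array among all 45037 probe sets other than controls. Its median over the wild-type arrays lay between 56.7 (Cavin1) and 87.9 (Arhgef12), and over the knockout arrays between 23.98 (Palm) and 78.4 (Arhgef12). The lowest wild-type signal was under 150 for 11 of 12, and the highest knockout signal was under 50 for 10 of 12. Between arrays A and B of a group the median probe set past the signal filter differed by 0.45 to 0.61 on the log2 scale. The ratio of geometric means, wild-type over knockout, ranged from 2.27 (Arhgef12) to 8.08 (Palm), with a median of 3.84. As background to these numbers, 528 probe sets, 1.51%, had all knockout arrays below all wild-type arrays when no margin or minimum was asked, and 45 probe sets, 0.129%, met the mirrored rule and were higher on every knockout array.

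**Figure D1:**
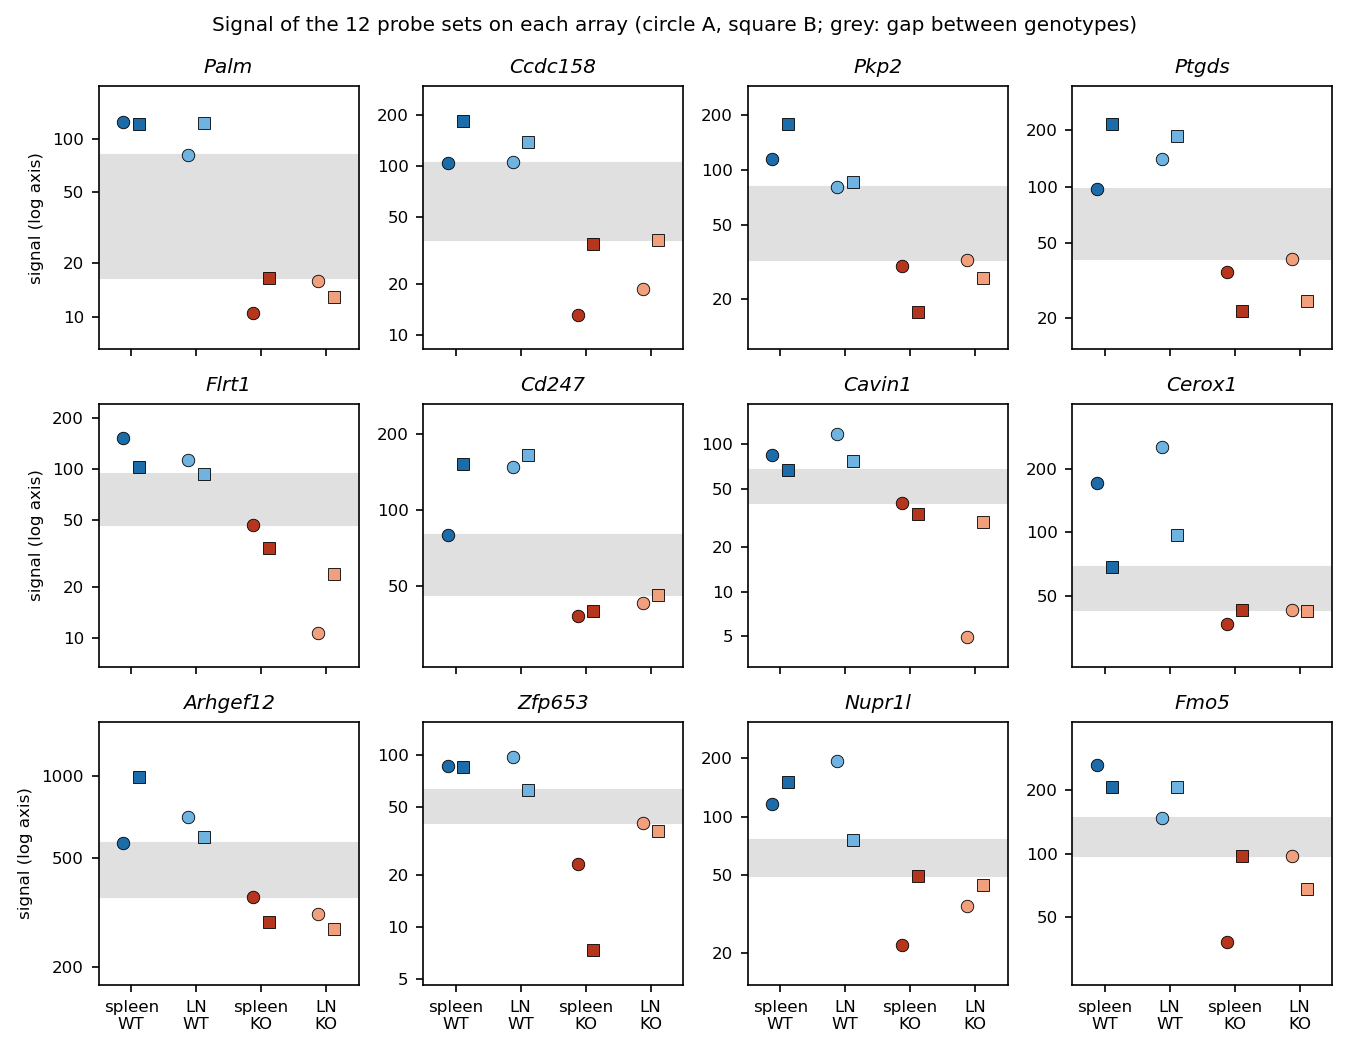
Deposited signal (log axis) of the 12 probe sets on each of the 8 arrays, one panel per gene, with wild-type arrays in blue, knockout arrays in red, circles for A and squares for B; the grey band runs from the highest knockout to the lowest wild-type signal. The band is widest for Palm, from 16.6 to 81.5, and narrow for Fmo5, from 97.7 to 147.

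Promoter sequences of 10 of the 12 genes were found in the RefSeq table for GRCm38.p6, each from 250 bases before to 50 after the start of the gene. Where a gene had several windows the first listed was used. The median number of CpG dinucleotides was 20 in 300 bases, against 7 over all 32851 windows and 13 over the 21262 windows of protein-coding genes, and 7 of 10 were above the latter. The count ran from 2 in Ptgds and 3 in Cd247 through 10 in Fmo5, 17 in Cavin1, 18 in Nupr1l, 22 in Zfp653 and Cerox1, 29 in Palm and 34 in Ccdc158 to 44 in Arhgef12. Short motifs were searched on both strands. The TATA box TATAAA was found in 1 of 10 (12.6% of protein-coding windows), CCAAT in 5 (38.2%), the GC box GGGCGG in 6 (46.2%), and the Aire-related motifs TTATTA in 2 (9.15%) and ATTGGTTA in 0 (0.955%). ATTGGTTA begins with the reverse complement of CCAAT, so any match to it would also count as CCAAT. A match describes letters and is no binding site, and a motif not found says only that it is not in this window.

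The range is shown by 4 promoters, in lower case with motif matches on either strand in capitals. Palm had the widest gap between genotypes and many CpG (chr10:79793322-79793621, plus strand). Cd247, a gene of blood cells, had few CpG and a TTATTA match (chr1:165788431-165788730, plus strand). Fmo5 held the only TATAAA match, beside CCAAT and GGGCGG (chr3:97628769-97629068, plus strand). Arhgef12 had the most CpG and 2 GGGCGG matches (chr9:43105669-43105968, minus strand). Each is printed 5′ to 3′ on the strand of the gene.
Palm: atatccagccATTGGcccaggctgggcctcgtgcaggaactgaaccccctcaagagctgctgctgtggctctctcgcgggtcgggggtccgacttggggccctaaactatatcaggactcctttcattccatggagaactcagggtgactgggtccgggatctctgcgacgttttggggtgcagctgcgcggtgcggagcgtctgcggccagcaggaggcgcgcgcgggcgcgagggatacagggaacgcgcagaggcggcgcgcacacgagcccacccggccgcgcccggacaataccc
Cd247: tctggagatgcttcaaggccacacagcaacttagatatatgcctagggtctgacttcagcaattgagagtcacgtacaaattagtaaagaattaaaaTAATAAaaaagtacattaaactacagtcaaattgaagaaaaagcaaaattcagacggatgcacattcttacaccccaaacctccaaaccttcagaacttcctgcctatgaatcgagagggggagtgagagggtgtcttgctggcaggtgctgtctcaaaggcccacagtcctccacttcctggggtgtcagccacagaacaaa
Fmo5: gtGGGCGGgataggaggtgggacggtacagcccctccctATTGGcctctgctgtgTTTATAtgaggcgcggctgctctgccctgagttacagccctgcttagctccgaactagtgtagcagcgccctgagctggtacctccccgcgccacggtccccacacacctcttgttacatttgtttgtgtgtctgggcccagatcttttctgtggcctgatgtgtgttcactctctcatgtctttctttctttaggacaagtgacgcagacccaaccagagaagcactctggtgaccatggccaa
Arhgef12: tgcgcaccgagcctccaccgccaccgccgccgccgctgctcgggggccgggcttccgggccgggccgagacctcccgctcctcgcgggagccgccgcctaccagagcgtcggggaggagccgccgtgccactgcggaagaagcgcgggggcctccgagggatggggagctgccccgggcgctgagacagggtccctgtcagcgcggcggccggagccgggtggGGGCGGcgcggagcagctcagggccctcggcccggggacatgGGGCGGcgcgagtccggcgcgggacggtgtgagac
None of the motifs searched was present in all 4 windows.

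Palm, Pkp2, Flrt1 and Cavin1 encode proteins of the cell membrane and of contacts between cells. Palm encodes paralemmin, a lipid-anchored protein of the inner face of the plasma membrane that is abundant in brain and shapes cell processes. Its wild-type signals were 124 and 122 in spleen and 81.5 and 122 in lymph node, and its knockout signals were 10.4 and 16.6 in spleen and 15.8 and 13.0 in lymph node. The groups were farther apart than for any of the other 11 genes: the lowest wild-type array stood 4.92 times above the highest knockout array, and all knockout arrays were close to the floor of 9.58, the 20th percentile of all signals. The log2 difference averaged over tissues was -3.09 (SE 0.28).

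Pkp2 encodes plakophilin 2, a plaque protein of desmosomes, the junctions that join heart muscle and epithelial cells. It read 115 and 179 in wild-type spleen, 81.1 and 85.9 in wild-type lymph node, 30.1 and 16.9 in knockout spleen and 32.5 and 26.0 in knockout lymph node. Spleen wild-type B was the highest array and spleen knockout B the lowest, so the fold was larger in spleen (6.37) than in lymph node (2.87), a difference taken up with its test below.

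Flrt1 encodes a transmembrane adhesion protein with leucine-rich repeats, known from kidney and brain, that interacts with fibroblast growth factor receptors. Its signals were 153 and 103 in wild-type spleen, 113 and 93.8 in wild-type lymph node, 46.7 and 34.4 in knockout spleen and 10.8 and 23.9 in knockout lymph node. Both knockout lymph node arrays lay below both knockout spleen arrays, and the wild-type arrays lay above all of them.

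Cavin1 encodes a coat protein that caveolae need, the small membrane pits of fat cells, muscle and endothelium. It read 84.0 and 67.2 in wild-type spleen, 118 and 76.4 in wild-type lymph node, 40.04 and 33.5 in knockout spleen and 4.90 and 29.4 in knockout lymph node. Lymph node knockout A was under the floor, and in spleen the nearest arrays of the genotypes were 40.04 and 67.2. The 9 measured markers of blood endothelium summed to 292 to 595 in wild-type and 365 to 733 in knockout samples. Those of fibroblasts and stroma, also 9, summed to 254 to 733 and 294 to 1423. The genotypes overlapped in both sums, but only 3 and 5 of these markers passed the signal filter. Kdr had the largest endothelial signal on every array. Most of the highest stroma sum was Cxcl13, at 1053 on lymph node knockout A. These sums therefore follow few genes. Muscle genes are given with the organ lists below. The part of caveola-rich cells in the Cavin1 signal was not tested.

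Ptgds, Fmo5, Arhgef12 and Cd247 encode enzymes and signalling proteins. Ptgds encodes the lipocalin-type prostaglandin D synthase, abundant in the coverings of the brain and in the male genital tract, which both makes prostaglandin D2 and carries small lipids. Its signals were 96.7 and 215 in wild-type spleen, 140 and 186 in wild-type lymph node, 35.0 and 21.6 in knockout spleen and 41.0 and 24.5 in knockout lymph node. In wild-type the B array was the higher of each pair and in knockout the lower. The fold was 5.24 in spleen and 5.10 in lymph node.

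Fmo5 encodes a flavin-containing monooxygenase of liver and gut that oxidises foreign and metabolic compounds. It read 265 and 207 in wild-type spleen, 147 and 207 in wild-type lymph node, 38.1 and 97.7 in knockout spleen and 97.1 and 67.6 in knockout lymph node. Its promoter, printed above, was the only one with TATAAA. It was the member nearest the edge of the rule, and its highest knockout array was at 0.664 times its lowest wild-type array.

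Arhgef12 encodes LARG, a guanine nucleotide exchange factor that passes signals from G12 and G13 coupled receptors to the small GTPase RhoA in many cell types. Its signals were 567 and 991 in wild-type spleen, 709 and 599 in wild-type lymph node, 359 and 291 in knockout spleen and 312 and 274 in knockout lymph node. Its fold was the smallest of the 12, and its knockout signals remained well above the medians of the arrays. The log2 difference averaged over tissues was -1.26 (SE 0.28). Its promoter, printed above, was the most CpG-rich of the 10.

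Cd247 encodes the zeta chain of the T cell receptor complex, which carries the activating signal in T cells and, with Fc receptors and natural killer receptors, in natural killer cells. The signals of the member probe set were 79.8 and 153 in wild-type spleen, 147 and 165 in wild-type lymph node, 38.1 and 39.8 in knockout spleen and 42.6 and 46.2 in knockout lymph node. All knockout arrays fell in this narrow band, and spleen wild-type A was the lowest wild-type array. The promoter printed above is among the poorest in CpG of the 10.

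Cd247 is the gene of the 12 best known from blood cells, so T cell markers stand beside it. Of 12 such markers 10 were measured and 6 passed the filter, of which 2 had a higher and 4 a lower mean in knockout, none called by limma, with a median log2 difference of -0.61 against -0.07 over all 26479 probe sets tested. The 2 higher were Cd8a and Cd4, the coreceptors of killer and helper T cells, by 1.29 (SE 0.45, adjusted p = 0.632) and 1.20 (SE 0.98, adjusted p = 0.843). The 4 lower were Cd28 (-0.78, SE 0.79, adjusted p = 0.879), Cd3d (-0.70, SE 0.31, adjusted p = 0.709), Il7r (-0.52, SE 0.30, adjusted p = 0.767) and Cd3e. Cd3d passed the filter through wild-type arrays only. Signals of the 10 measured T cell markers summed to 5922 to 6344 in wild-type and 4052 to 6076 in knockout samples, most of it Il7r. Cd3e, a partner of the zeta chain, read 293 and 139 in wild-type spleen, 127 and 347 in wild-type lymph node, 73.2 and 24.4 in knockout spleen and 212 and 206 in knockout lymph node, so its genotypes overlapped in lymph node and not in spleen, and its difference was -1.20 (SE 0.54, adjusted p = 0.711). The 7 measured natural killer cell markers summed to 230 to 508 in wild-type and 403 to 599 in knockout samples. The part of T cell number in the Cd247 signal was not tested.

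Zfp653, Nupr1l, Cerox1 and Ccdc158 act on transcription or RNA, or have a little-studied role. Zfp653 encodes a zinc finger protein that represses transcription with nuclear receptors. It read 86.3 and 84.7 in wild-type spleen, 97.7 and 63.0 in wild-type lymph node, 23.3 and 7.39 in knockout spleen and 40.1 and 36.1 in knockout lymph node. The knockout spleen arrays were lower than the knockout lymph node arrays, and spleen knockout B was under the floor.

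Nupr1l encodes a paralogue of the small stress-induced nuclear protein Nupr1. Its signals were 117 and 150 in wild-type spleen, 193 and 75.4 in wild-type lymph node, 21.8 and 49.7 in knockout spleen and 34.8 and 44.5 in knockout lymph node. The wild-type lymph node arrays spanned all other wild-type values, and the lower of them set the ratio of 0.659.

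Cerox1 is a long noncoding RNA, abundant in brain, that raises the expression of mitochondrial complex I genes by binding microRNAs. It read 172 and 68.0 in wild-type spleen, 256 and 97.3 in wild-type lymph node, 36.5 and 42.8 in knockout spleen and 42.7 and 42.1 in knockout lymph node. Wild-type A was above wild-type B in both tissues, whereas the knockout arrays differed little from each other.

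Ccdc158 encodes a coiled-coil protein best known from testis and without a well-defined role. Its signals were 104 and 185 in wild-type spleen, 105 and 139 in wild-type lymph node, 13.2 and 34.5 in knockout spleen and 18.7 and 36.5 in knockout lymph node. The B array was the higher in all 4 groups, and the log2 difference averaged over tissues was -2.53 (SE 0.43). It had the second largest fold, 5.48.

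By their usual sites of expression, the 12 genes do not come from a single organ: brain is named above for Palm, Ptgds, Flrt1 and Cerox1, heart and epithelium for Pkp2, liver and gut for Fmo5, testis for Ccdc158, blood cells for Cd247, and fat, muscle and endothelium for Cavin1. These sites are background knowledge and were not measured here. None of the 12 was on any of 28 gene lists made for this comparison, 14 of cell type markers and 14 of tissue or pathway genes, so the lists describe the surroundings of the members and not the members.

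The gap between members and other genes at the border of the rule was small. Just inside the fold limit stood Zfp653 with a ratio of 0.637, Nupr1l with 0.659 and Fmo5 with 0.664, highest knockout over lowest wild-type. Just outside were Med13, a subunit of the mediator kinase module (0.679), Dcstamp, a fusion protein of osteoclasts and dendritic cells (0.679), and Zfand5, a zinc finger protein that stimulates the proteasome (0.702). Past the fold limit but under the signal limit of 60 were a second probe set of Pkp2 with a lowest wild-type signal of 55.5, Krt222 with 50.7 and Serhl with 47.0. When every array was first brought to a common median, 17 probe sets met the rule and 11 of the 12 were among them. Fmo5 left, and Stambp, Rmdn1, Tspan17, Ccdc120, Dcstamp and Zfand5 entered.

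**Figure D2:**
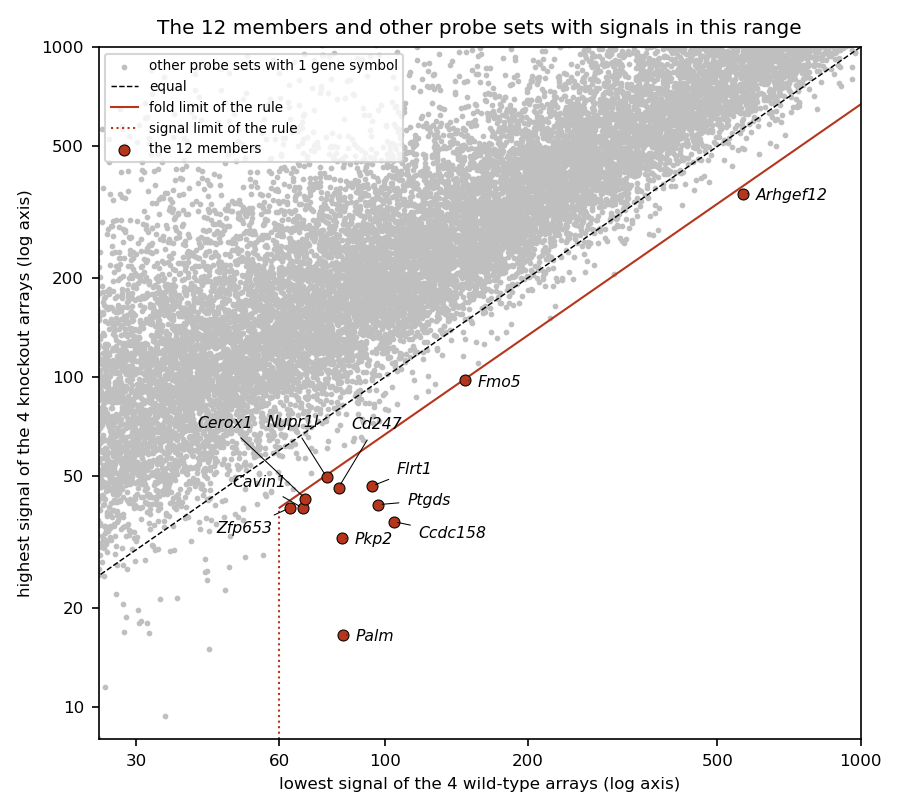
Highest signal of the 4 knockout arrays against lowest signal of the 4 wild-type arrays (both axes log), 1 point per probe set with 1 gene symbol, shown over the range of signals that holds the members. The 12 members lie under the red line of the fold limit, 0.67, and right of the dotted signal limit, 60; Palm lies farthest under the line and Fmo5, Nupr1l and Zfp653 close to it.

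Other probe sets of the same genes gave a further view of the same contrast, again without a test. There were 17 of them for 9 genes, and none for Ccdc158, Cerox1 and Zfp653. On 7 of the 17, from Palm, Pkp2, Ptgds, Flrt1, Cd247 and Arhgef12, all knockout arrays were below all wild-type arrays. The Ptgds probe set among them was mostly under the floor. Over all probe sets with a single gene symbol, 528 of 34945 (1.51%) were separated in this way. The genes were chosen on the same arrays, so nothing is read from how these shares differ. Of the 17, 14 had the lower geometric mean in knockout, and the share of such probe sets over all was not counted. The median fold of the 17 was 1.91. The 2 probe sets of a gene share its RNA and the arrays, so they are no independent replicates.

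For Palm the second probe set read 97.1 and 128 in wild-type spleen, 121 and 109 in wild-type lymph node, 39.0 and 40.7 in knockout spleen and 55.8 and 73.5 in knockout lymph node. It separated the genotypes too, by a smaller fold of 2.24. Pkp2 had 3 others: one read 72.2, 119, 72.5 and 55.5 on the wild-type arrays of spleen A and B and lymph node A and B, and 28.9, 2.43, 5.25 and 27.3 on the knockout arrays in that order. The next read 138, 70.0, 71.4 and 95.3 on wild-type and 33.3, 12.6, 23.5 and 51.1 on knockout arrays. These separated the genotypes like the member probe set, while the last, at 6.61 to 61.2 in wild-type and 6.13 to 53.4 in knockout, did not.

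For Cd247 the probe sets disagreed. One read 1518 and 1891 in wild-type spleen, 720 and 1198 in wild-type lymph node, 614 and 656 in knockout spleen and 311 and 497 in knockout lymph node, with knockout below wild-type throughout. Another read 798 and 1351 in wild-type spleen, 1493 and 1252 in wild-type lymph node, 1307 and 867 in knockout spleen and 1173 and 784 in knockout lymph node. There the genotypes overlapped and the fold was 1.18. The last, at 45.6 to 75.3 in wild-type and 45.9 to 89.5 in knockout, had a fold of 0.814. Which transcripts each of these probe sets reads was not analysed here.

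A second Arhgef12 probe set read 420 and 684 in wild-type spleen, 434 and 463 in wild-type lymph node, 332 and 223 in knockout spleen and 239 and 247 in knockout lymph node, a fold of 1.91 without overlap, and on 2 others the genotypes overlapped. The second Flrt1 probe set was at 32.3 to 48.8 in wild-type and 13.5 to 31.0 in knockout samples, which separated the genotypes by a hair. That of Ptgds was at 7.89 to 33.4 and 4.13 to 7.66, mostly under the floor, so its order carries little. Genotypes overlapped on the other probe sets of Cavin1, Fmo5 and Nupr1l. One of Cavin1 read 246, 219, 286 and 307 on wild-type and 146, 188, 95.8 and 347 on knockout arrays, so that lymph node knockout B was the highest of all 8. That of Nupr1l went the other way, at 58.8 to 86.8 in wild-type and 61.5 to 130 in knockout samples, with a fold of 0.737.

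**Figure D3:**
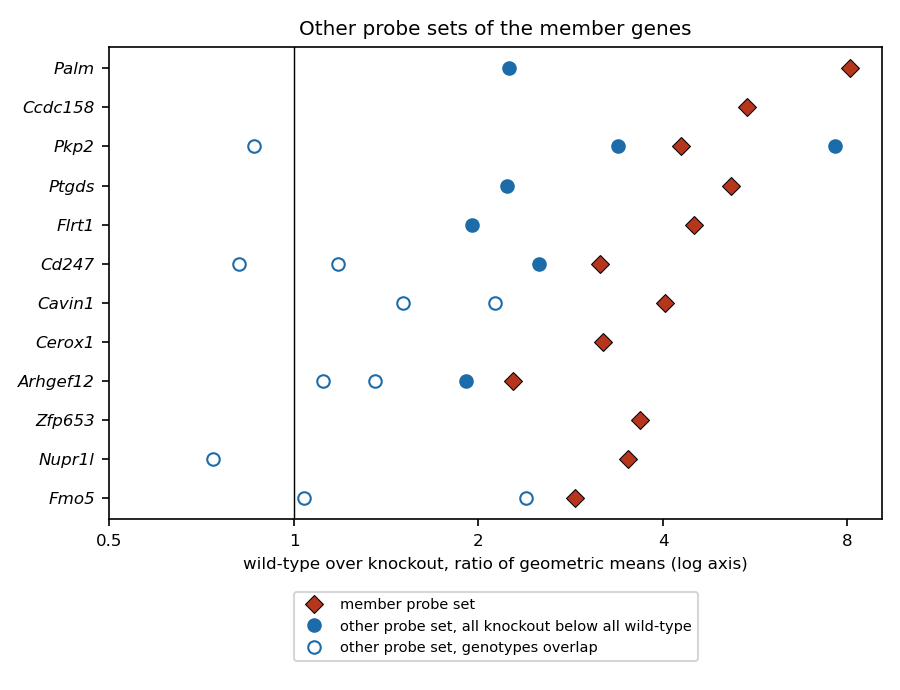
Wild-type over knockout ratio of geometric means over 4 arrays each (log axis) for each member probe set (diamonds) and for the 17 other probe sets of 9 of the genes, filled where all knockout arrays were below all wild-type arrays and open where the genotypes overlapped. Filled points are seen for Palm, Pkp2, Ptgds, Flrt1, Cd247 and Arhgef12, and 3 open points, of Pkp2, Cd247 and Nupr1l, lie under 1.

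Affymetrix marks with a suffix how specific a probe set is. Of the 12, 7 ended in _at, for which no shared sequence is marked, 2 in _a_at (Ptgds and Cd247), which read several transcripts of a gene, and 3 in _s_at (Pkp2, Arhgef12 and Fmo5), which may read transcripts of several genes. The shares over all 34945 probe sets were 77.2%, 11.7% and 5.24%. The 3 _s_at values are therefore uncertain as to the gene.

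Spleen and lymph node are a comparison that the rule did not use, although a large tissue difference makes the rule harder to meet. By limma with Benjamini-Hochberg adjustment over 26479 probe sets, none of the 12 differed between the tissues (adjusted p under 0.05), and 0% of all probe sets did, so the fit could call nothing for members or others. Without adjustment 1 of the 12 and 2540 of all probe sets had p under 0.05. That member was Flrt1, higher in spleen by 0.90 on the log2 scale (SE 0.36, 95% interval ±0.84, unadjusted p = 0.0389, adjusted p = 0.492). Its spleen arrays were above the lymph node arrays in knockout, and overlapped them in wild-type. The differences of the 12 ran from -0.49 (Zfp653) to 0.90, 8 higher in spleen and 4 lower, with 95% intervals of ±0.67 to ±1.01. Their median size was 0.24, against 0.30 over all probe sets tested. Differences of up to about these interval widths cannot be told from 0 with 2 arrays a group.

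Within each tissue the fold was 2.05 (Cavin1) to 9.36 (Palm) in spleen, with a median of 3.93, and 2.06 (Zfp653) to 7.90 (Cavin1) in lymph node, with a median of 3.62. It was larger in spleen for 8 genes and in lymph node for Flrt1, Cd247, Cavin1 and Cerox1. The widest contrasts were Zfp653, with knockout minus wild-type at -2.58 in spleen and -1.08 in lymph node on the log2 scale, and Cavin1, with -1.15 and -2.47. Each of these rests in part on a single knockout array under the floor. The difference between the tissues, spleen minus lymph node, ran from -1.50 (Zfp653) to 1.33 (Cavin1) with 95% intervals of ±1.34 to ±2.02. None of the 12 passed limma's test of it (lowest adjusted p = 0.9998), none had an unadjusted p under 0.05, and 0% of all probe sets passed, 944 of them with unadjusted p under 0.05. With 2 arrays a group, a difference between the tissues in the size of the change was not detectable for any of the 12.

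**Figure D4:**
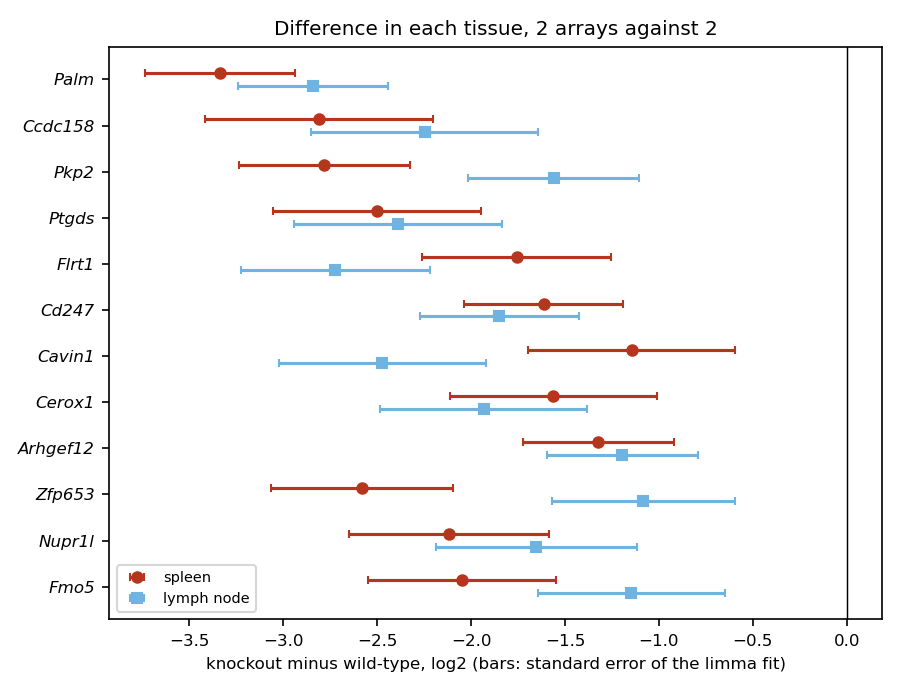
Knockout minus wild-type on the log2 scale for each of the 12 genes, in spleen (circles) and lymph node (squares), 2 arrays against 2 each; bars are standard errors of the limma fit. All values lie under 0, as the rule requires, and the tissues are farthest apart for Zfp653 and Cavin1.

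Applied to the arrays of a single tissue, the same limits were met by many more probe sets: 613 in spleen (1.75%) and 345 in lymph node (0.987%). The limits were met in both tissues by 40 probe sets of 39 genes, which is 6.53% of the spleen list and 11.6% of the lymph node list. The tissues share no arrays, but their sex-linked signals matched by genotype and letter. Whether the same animals gave both tissues is not stated, so the tissues cannot be taken as independent repeats. The 12 are among the 40 by construction. The other 28 probe sets, which missed the rule over all 8 arrays, include Aire, the transcription cofactor Ldb2 with 2 probe sets, the T and natural killer cell surface protein Cd7, the costimulatory receptor Tnfrsf9 and the cytokine Lif. Lif read 167 and 166 in wild-type spleen, 123 and 116 in wild-type lymph node, 49.6 and 87.2 in knockout spleen and 25.9 and 39.9 in knockout lymph node. These genes were picked after their values were seen, to show how close to the rule better-known genes came. With the direction turned, 826 and 450 probe sets met the limits and 76 met them in both, 16.9% of the lymph node list.

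Known thymic targets of Aire were followed from a list of 32 genes. Of the 26 measured, 10 passed the filter, 6 with a higher and 4 with a lower mean in knockout, and none was called by limma, where 0.0113% of all probe sets were called between genotypes, namely 3 without a gene name. Of the 6, 3 (Csn2, Pcp4 and Ttr) passed the filter through knockout arrays only, so the filter in part fixed this tally. The tally also counts S100a8 as higher, by 1.85 (SE 1.25), and Bpifa2 as lower, by -0.58 (SE 1.95). As given above, S100a8 stood apart on spleen knockout A, and Bpifa2 on lymph node wild-type A and lymph node knockout B. Csn2, which encodes the milk protein beta-casein, was at 0.449 to 5.22 on wild-type and 30.7 to 179 on knockout arrays; its difference was 3.25 (SE 0.39, adjusted p = 0.120), opposite to the 12. Pcp4, a calmodulin regulator of Purkinje cells, differed by 1.81 (SE 0.72, adjusted p = 0.677) and Prm1, a sperm protamine, by -0.61 (SE 0.36, adjusted p = 0.767).

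Aire's own partner proteins were followed in the same way. Of 28 measured genes of this list, Aire included, 27 passed the filter, 20 with a lower and 7 with a higher mean in knockout, with a median of -0.23 and none called. Pias1, a SUMO ligase reported to bind Aire, had the next smallest p after Aire, with -0.61 (SE 0.23, adjusted p = 0.650). Over all 28 lists 151 measured genes passed the filter, 82 higher and 69 lower in knockout, of which limma called none and 26 had an unadjusted p under 0.05. Among all 26479 probe sets tested, 1902 had an unadjusted p under 0.05 by limma in this contrast. The lists were made with earlier results of these data known, and some of their genes passed the filter through arrays of 1 genotype only. Nothing is therefore read from how these shares differ.

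Organ lists for the usual sites of the members were small, and none of their genes was called. Of 6 muscle and heart genes past the filter 5 had a lower mean in knockout, 2 of which (Myl1 and Ttn) passed through wild-type arrays only. Myl1, a myosin light chain, differed by -2.07 (SE 0.31, adjusted p = 0.221), while Myh7, a heart myosin heavy chain, differed by 2.04 (SE 0.30, adjusted p = 0.211). Of 6 brain genes 4 had a higher mean, 2 of them (Npy and Pcp4) past the filter through knockout arrays only. Of 3 liver genes 2 were higher and 1 lower, both gut genes were higher, of 2 kidney genes 1 was higher and 1 lower, and all 3 testis genes were lower. Ttr of liver and both gut genes passed the filter through knockout arrays only, and Aqp2 of kidney and 2 of the testis genes, Prm2 and Tcp11, through wild-type arrays only. The 12 epithelial markers, relevant to Pkp2, summed to 2782 to 4156 in wild-type and 1307 to 4379 in knockout samples, and 5 of 6 past the filter had a lower mean in knockout, none called, with Epcam at -1.02 (SE 0.35, adjusted p = 0.623). The part of epithelial cells in the Pkp2 signal was not tested.

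Thymic Aire targets often lie in clusters, so the genes next to the members were examined. The 12 have 24 flanking protein-coding genes in the RefSeq order, of which 22 were measured. None had all knockout arrays below all wild-type arrays, none was a member, and their wild-type over knockout ratios ran from 0.287 to 2.28 with a median of 1.07. Over all probe sets with 1 gene symbol 1.51% had all knockout arrays below all wild-type arrays. With 22 genes a count of none is near that share, so nothing about clusters is read from it.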

How the data were processed

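RNA of 8 samples was hybridised to Affymetrix arrays. The deposited values are intensity values, 1 linear signal per probe set, made with MAS5 per the submitters' processing notes; which version was used, and whether transcripts were called present, is not stated there. Of 45101 probe sets, 64 controls were left out, and 34945 of the rest had 1 gene symbol, 932 several and 9160 none. The 2% trimmed mean was about 250 on every array (249.9), so arrays had been scaled before deposition.

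The selection rule and all folds use these signals unchanged. For limma 3.58.1 in R 4.3.3, arrays were shifted to a common median, signals under 9.58 (20th percentile) raised to it, and log2 taken. The 26479 probe sets above 59.0, the pooled median, on at least 2 arrays were fitted with a mean per group (lmFit, eBayes; 4 residual and 3.05 prior degrees of freedom) and adjusted by Benjamini-Hochberg at 0.05. All 12 members passed this filter. The fit was tested on simulated data for the contrast between tissues and for the tissue-dependent knockout effect, not for knockout against wild-type. The simulated spread was smaller than that of the data, and no scaling, floor or filter was used there. List genes used the probe set with the highest mean. Named were Aire, all members, the 3 probe sets on either side of each limit, and for some of the lists, not all, genes with the smallest p. Members and lists were chosen with earlier results of these data known. Alternatives covered the limits, scaling, floor, filter, prior, probe set choice and left-out arrays. Symbols of 34741 probe sets matched RefSeq by gene ID. Other genes named for illustration were chosen after their values were seen. Array number limits the precision.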

Additional observations from a re-analysis of the deposited data

How the results depend on the processing

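The count of 12 depends on its limits: 5 probe sets met the rule at a fold limit of 0.5 (Palm, Ccdc158, Pkp2, Ptgds and Flrt1), 52 at 0.8, 28 at a minimum signal of 30 and 2 at 120 (Arhgef12 and Fmo5), 613 on spleen and 345 on lymph node arrays alone. The mirrored rule gave 12, 82, 69, 22, 826 and 450 in that order, instead of 45. Leaving out 1 array can only add probe sets: counts rose to between 21 and 50, the most without spleen knockout B, and for the mirrored rule to between 56 and 125; all 12 were in each. A common median gave 17 and quantile normalization 16, each with 11 of the 12, and 33 and 37 mirrored; without _x_at and _s_at probe sets 9 remained. Members called between tissues or for a tissue-dependent knockout effect numbered 0 in every setting, also with the replicate letter as a block. The labels do not say what the letters mark, and correlations of A minus B between groups were 0.0464 to 0.288, not all above 0.1; sex-linked signals matched between spleen and lymph node by genotype and letter. With the replicate block 0 of all probe sets were called between tissues and 0 list genes between genotypes. With the letter within genotype as a block, added after seeing the data, 0 members and 0 of all probe sets were called between tissues, and 0 members for the tissue-dependent effect. Without lymph node wild-type A and lymph node knockout B together, also added then, 101 probe sets met the rule and 261 the mirrored one, all 12 and all 45 among them, and the counts of calls were 0. Over all probe sets 65 were called between tissues with a trended robust prior and 0 to 2 with 1 array left out (2 without spleen wild-type B); of the list genes 1 was called without a floor (Csn2), 1 with the trended prior (Aire), and 0 to 1 with 1 array left out (Csn2, without spleen knockout B); the cause was not tested. Cavin1 and Zfp653 each had 1 knockout array under the floor.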
